A study of Mus musculus with 6 samples.

Results

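The genes described here encode receptor chains for interleukin 4 (IL-4), interleukin 13 (IL-13) and the interleukin 6 (IL-6) family, with the transcription factors they activate and 1 feedback inhibitor. The members were the 10 genes Il13ra1, Il4ra, Il2rg, Stat6, Il6ra, Il6st, Lifr, Osmr, Stat3 and Socs3, of 22180 genes measured. They were chosen by pathway and by the log2 differences of the 3 diabetic from the 3 nondiabetic arrays, which were known beforehand, so these differences are given as a description with no p-value. For each gene the value is that of the brightest probe set annotated with that gene alone, by the mean over all 6 arrays. A value was found for 9 of the 10 members. Il2rg, the common gamma chain that joins Il4ra in a receptor of lymphoid and myeloid cells, is named by no probe set in the annotation used and has no value here. All 9 measured members passed the filter on dim genes, a mean log2 level of 5.07 or more. Each sample was RNA of 5000 sorted marrow endothelial cells from male C57BL/6J mice, amplified and hybridised to a microarray. The diabetic group held 3 arrays of mice in which feeding with fat had brought on diabetes, and the nondiabetic group held 3 arrays of control mice. The labels of both groups carry one diet text, 60 kcal% fat for 4 months, so what the control mice ate is not settled. Whether each array stands for a separate mouse is not stated either, so the spread between arrays, and any p-value built on it, may be technical.

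Receptors of this class have no enzyme activity of their own and signal through Janus kinases (JAK) bound to their chains, which phosphorylate transcription factors of the STAT family. IL-13 and IL-4 signal in non-lymphoid cells, endothelium among them, through Il13ra1 paired with Il4ra, and the main factor activated is Stat6. IL-6 binds Il6ra, which then engages the shared chain gp130, encoded by Il6st. Leukemia inhibitory factor and oncostatin M use gp130 together with Lifr or Osmr, and Stat3 is the main factor of this branch. Socs3 is induced by Stat3 and binds gp130 to shut the signal off. In endothelium these pathways are known for their effects on adhesion molecules, chemokines and permeability.

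The sorted cells carried the transcripts of endothelium. All 15 markers of endothelium in general were tested, and VE-cadherin (Cdh5), the brightest of them, averaged 10.88 ± 0.43 in diabetic cells and 10.98 ± 0.22 in nondiabetic cells (SD, n = 3 each; all levels are log2 values). Taken over the list, the marker mean was 9.78, 9.11 and 9.05 on diabetic arrays 1 to 3, against 9.41, 9.59 and 9.11 on nondiabetic arrays 1 to 3, so that diabetic array 1 stood above the other five. Blood cell genes were bright in both groups too, among them Prss34 of basophils, which averaged 11.39 ± 0.27 in diabetic cells and 11.29 ± 0.43 in nondiabetic cells. In sorted bulk RNA, a change in the share of a cell type and a change in RNA per cell cannot be told apart. Array medians lay between 5.21 and 5.28. Over the 13308 tested genes, limma called 0 higher and 1 lower in diabetes at an adjusted p under 0.05, which is 0.00751% of those tested. At an unadjusted p under 0.05 there were 566 genes (4.25%).

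Of the 9 measured members, 5 had higher and 4 lower mean levels in diabetic cells, and 0 passed the adjusted test. The median difference was 0.15, against 0.02 over all tested genes, and 54.0% of all tested genes had a higher mean in diabetes. For Il13ra1, Il6ra and Il6st every diabetic array lay above every nondiabetic array, which held for 5.28% of all tested genes. No member had every diabetic array below every nondiabetic array, which held for 2.67% of the tested genes. These counts describe genes picked with this contrast in view. The 3 genes are ligand-binding or shared receptor chains, but so are Il4ra, Lifr and Osmr, whose groups overlapped. The 4 with lower means were Lifr, Osmr, Stat6 and Socs3.

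**Figure D1:**
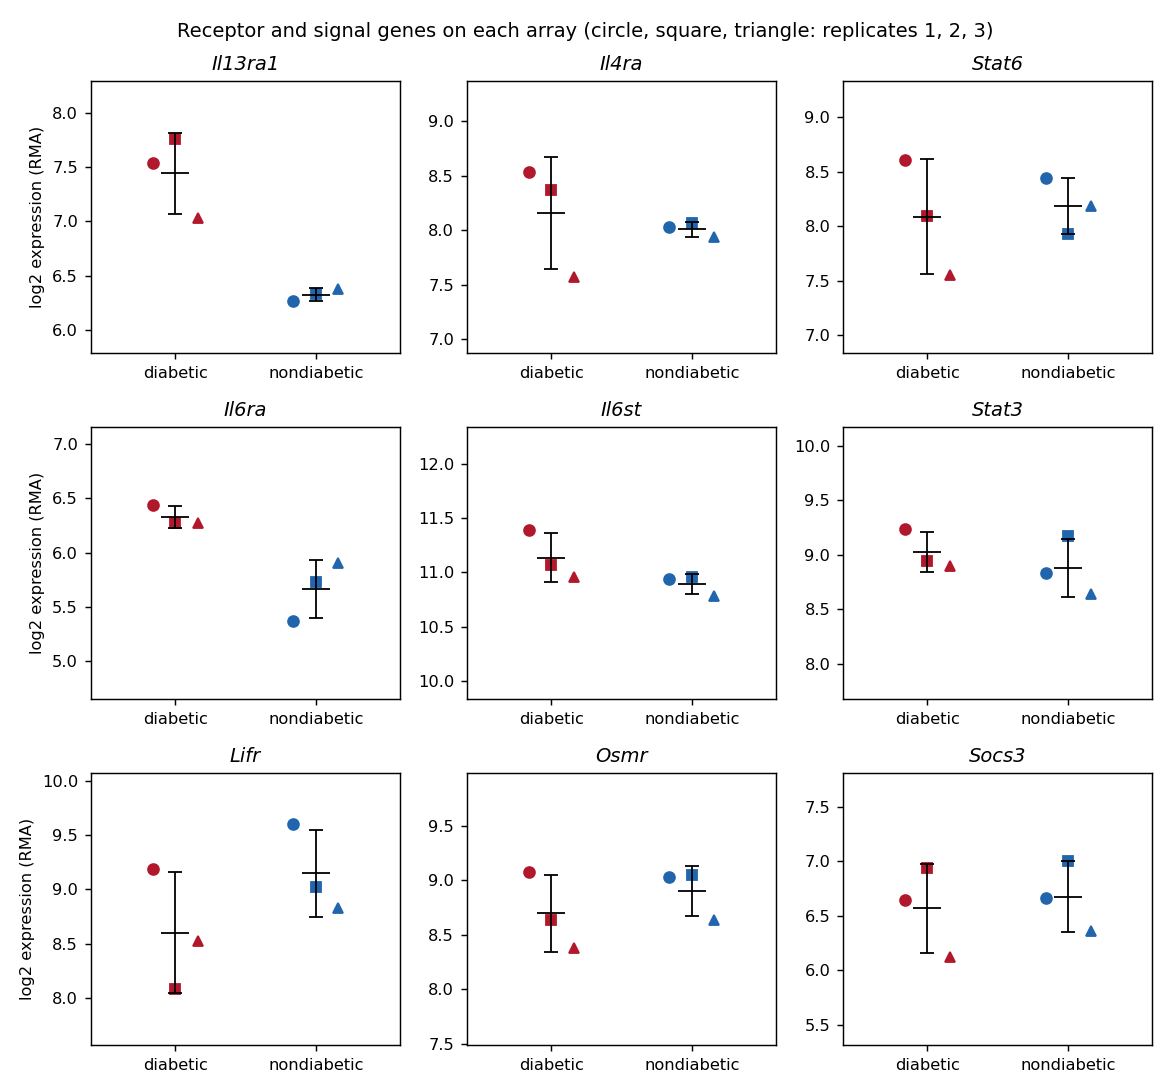
Log2 expression (y axis, the same height in log2 units in every panel) of the 9 measured genes on the 3 diabetic (red, left) and 3 nondiabetic (blue, right) arrays, with the group mean and SD as black bars. For Il13ra1 the red points sit between 7.03 and 7.76 and the blue points between 6.27 and 6.38, while for Stat6, Stat3, Osmr and Socs3 the colours overlap.

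The start regions of the 3 genes whose groups did not overlap are printed with that of Socs3, the feedback target of the IL-6 branch, because the STAT factors of these receptors are known to bind short words in such regions. Each runs from 250 bases before to 50 bases after the RefSeq start on GRCm38.p6, 5′ to 3′ in the direction of the gene. Il13ra1 is at chrX:36111858-36112157 on the plus strand, Il6ra at chr3:89913147-89913446 on the minus strand, Il6st at chr13:112463820-112464119 on the plus strand and Socs3 at chr11:117969317-117969616 on the minus strand. Capitals mark the GC box GGGCGG or its reverse complement CCGCCC, and the STAT word TTCNNNGAA.
Il13ra1: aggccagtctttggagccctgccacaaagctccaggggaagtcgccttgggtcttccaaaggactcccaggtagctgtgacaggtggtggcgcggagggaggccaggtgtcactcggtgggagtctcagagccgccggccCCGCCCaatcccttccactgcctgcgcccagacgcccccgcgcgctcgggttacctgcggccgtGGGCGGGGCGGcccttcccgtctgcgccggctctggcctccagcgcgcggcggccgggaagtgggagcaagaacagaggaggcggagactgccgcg
Il6ra: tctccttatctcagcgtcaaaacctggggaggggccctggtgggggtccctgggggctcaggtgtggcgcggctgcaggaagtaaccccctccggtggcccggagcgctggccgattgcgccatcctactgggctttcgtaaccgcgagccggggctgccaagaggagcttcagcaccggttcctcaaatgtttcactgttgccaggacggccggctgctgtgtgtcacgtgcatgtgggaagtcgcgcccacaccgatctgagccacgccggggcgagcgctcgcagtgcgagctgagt
Il6st: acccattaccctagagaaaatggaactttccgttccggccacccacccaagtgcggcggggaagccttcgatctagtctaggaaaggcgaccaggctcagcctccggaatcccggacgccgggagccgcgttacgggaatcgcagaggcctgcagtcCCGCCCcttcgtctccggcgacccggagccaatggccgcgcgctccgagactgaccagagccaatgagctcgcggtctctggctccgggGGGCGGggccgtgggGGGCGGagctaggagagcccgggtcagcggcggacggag
Socs3: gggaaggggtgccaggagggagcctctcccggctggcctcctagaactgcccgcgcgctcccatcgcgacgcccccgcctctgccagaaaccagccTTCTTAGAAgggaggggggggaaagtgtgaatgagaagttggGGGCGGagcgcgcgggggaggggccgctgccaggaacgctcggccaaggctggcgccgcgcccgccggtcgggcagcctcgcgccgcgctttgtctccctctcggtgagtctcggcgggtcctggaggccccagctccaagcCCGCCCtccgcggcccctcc

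All 10 members had a start region in the RefSeq table, and Lifr had 2, which makes 11 regions. Every motif was searched on both strands. The word TTCNNNGAA, the form bound by Stat3 and most STATs, was found in 1 of the 11 regions, that of Socs3, as TTCTTAGAA from base -154 to base -146, and in 8.30% of 32851 regions of the same length genome-wide. The wider word TTCNNNNGAA, preferred by Stat6, was found in 0 of the 11 and in 6.95% of all regions. The GC box was found in 7 of the 11 regions and in 35.7% of all. Il13ra1 and Il6st held 3 GC boxes each, a pair of them in Il13ra1 sharing a single G, and Il6ra held 0. No STAT word overlapped a GC box. CCAAT was found in 4 of the 11 and in 37.4% of all, and TATAAA in 0 and in 13.6%. GC content was 71.0% for Il13ra1, 66.0% for Il6ra, 68.3% for Il6st and 73.3% for Socs3, against a median of 52.7% over all regions. Matches of letters are a description of these windows and do not show binding.

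Il13ra1 encodes the chain that binds IL-13 and, with Il4ra, forms the receptor through which non-lymphoid cells answer IL-13 and IL-4. It stood at 7.53, 7.76 and 7.03 on the 3 diabetic arrays, against 6.27, 6.34 and 6.38 on the 3 nondiabetic arrays. The nondiabetic arrays lay close together and the diabetic arrays were spread wider, with a gap of 0.65 between the lowest diabetic and the highest nondiabetic array. The means were 7.44 ± 0.37 in diabetic and 6.33 ± 0.06 in nondiabetic cells (SD, n = 3 each). Il13ra1 thus differed by 1.11 (SE 0.20), which is 2.16-fold. Of all tested genes, the difference of Il13ra1 lay at the 99.8th percentile. With single arrays left out it ranged from 0.95, without diabetic replicate 2, to 1.32, without diabetic replicate 3.

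Il4ra, the signaling partner of Il13ra1 and the chain that binds IL-4, did not separate the groups. It stood at 8.53, 8.37 and 7.57 in diabetic and at 8.03, 8.07 and 7.93 in nondiabetic cells. Diabetic arrays 1 and 2 lay above all nondiabetic arrays and diabetic array 3 lay below them. The difference was 0.15 (SE 0.25), and it was 0.44 without diabetic replicate 3, 0.04 without diabetic replicate 2 and -0.04 without diabetic replicate 1.

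Stat6, the transcription factor that docks to Il4ra, also overlapped. Its levels were 8.61, 8.10 and 7.55 in diabetic and 8.44, 7.93 and 8.19 in nondiabetic cells. The highest and the lowest of the 6 values were both diabetic. The difference was -0.10 (SE 0.28). Its sign turned with diabetic replicate 3 left out (0.17) and with nondiabetic replicate 1 left out (0.03). Leaving out diabetic replicate 1 gave -0.36, and leaving out nondiabetic replicate 2 gave -0.23.

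Il6ra, the chain that binds IL-6 and is best known from hepatocytes, monocytes and T cells, stood at 6.44, 6.27 and 6.27 in diabetic cells, against 5.37, 5.73 and 5.90 in nondiabetic cells. Here the diabetic arrays lay close together and the nondiabetic arrays spread, the reverse of Il13ra1. The means were 6.33 ± 0.10 in diabetic and 5.67 ± 0.27 in nondiabetic cells (SD, n = 3 each). Il6ra differed by 0.66 (SE 0.18), which is 1.58-fold, at the 98.5th percentile of all tested genes. The range with single arrays left out was 0.51, without nondiabetic replicate 1, to 0.78, without nondiabetic replicate 3. The lowest nondiabetic value was close to the dim limit of 5.07.

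Because Il6ra is also a monocyte gene, the monocyte and macrophage markers were set beside it. Of 15 listed markers 14 were measured and 11 tested, and all 11 had higher means in diabetic cells, with a median difference of 0.42. The mean level of the measured markers was 7.35, 7.14 and 7.11 on the diabetic arrays and 6.69, 7.01 and 6.67 on the nondiabetic arrays. The groups did not overlap, as for Il6ra. The macrophage genes Adgre1, Fcgr1 and Mpeg1 were left out as dim, while Ly6c2, the brightest marker, averaged 11.09 ± 0.27 in diabetic cells and 10.76 ± 0.44 in nondiabetic cells (SD, n = 3 each). Higher means were also found for 8 of 8 tested neutrophil markers (median difference 0.32) and 9 of 9 megakaryocyte and platelet markers (0.22). For B lymphoid markers it was 4 of 7 (0.46), where 54.0% of all tested genes had a higher mean. The neutrophil count leans on the dim filter. Camp, Ltf, Retnlg, Mmp8, Mmp9 and Fcnb were left out as dim, and each had a lower mean in diabetic cells. Over all 14 measured neutrophil markers the mean level differed by 0.14. The B lymphoid median leans on the dim filter too. Cd79a and Dntt had nondiabetic means of 4.93 and 4.82, under the limit of 5.07, and passed through their diabetic levels. Among the 9 platelet-list markers only Selp, which is also on the list of IL-4 and IL-13 response genes, separated the groups, at 0.62. Pf4 and Ppbp differed by 0.04 and 0.07. These genes were named after their values were seen. The median difference was 0.04 for basophil and mast cell, -0.02 for erythroid and -0.12 for T and NK lymphoid markers, and the per-array means of all 6 of these lists overlapped between the groups. The part of monocyte or other blood cell RNA in the Il6ra and Il13ra1 differences was not tested. Of 9 tested sinusoidal endothelial markers 8 had higher means in diabetic cells, and the differences ran from -0.06 to 1.94. For 5 of the 9 every diabetic array lay above every nondiabetic array, against 5.28% of all tested genes. The mean of the 10 measured markers was 8.41, 7.95 and 7.89 in diabetic and 7.51, 7.39 and 7.40 in nondiabetic cells, again without overlap. The 11 arteriolar markers all had lower means in diabetic cells, with a median difference of -0.34, and the per-array means overlapped. These lists were drawn up with results of these arrays known.

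**Figure D2:**
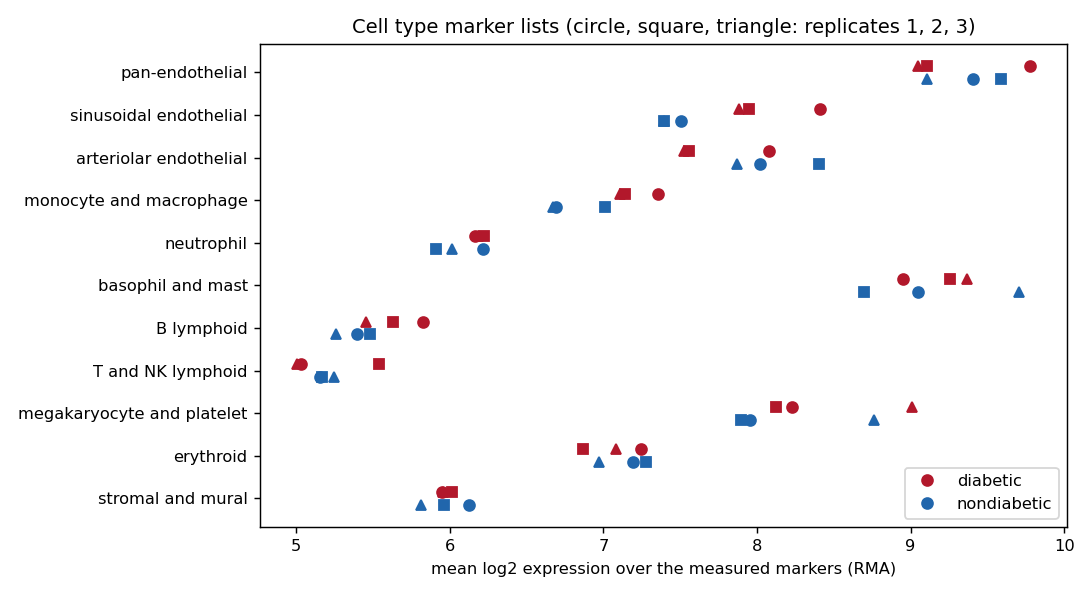
Mean log2 expression over the measured markers of each cell type list (x axis) on the diabetic (red, upper row) and nondiabetic (blue, lower row) arrays, with marker shapes for replicates 1, 2 and 3. The sinusoidal and the monocyte and macrophage lists separate the groups, at 7.89 to 8.41 against 7.39 to 7.51 and at 7.11 to 7.35 against 6.67 to 7.01, and the other lists overlap.

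Il6st encodes gp130, the chain shared by IL-6, leukemia inhibitory factor, oncostatin M and related cytokines. It stood at 11.39, 11.07 and 10.96 in diabetic cells, against 10.94, 10.95 and 10.79 in nondiabetic cells. The groups did not overlap, but the lowest diabetic and the highest nondiabetic array were only 0.0040 apart. The difference was 0.24 (SE 0.17) or 1.18-fold, and it was 0.12 without diabetic replicate 1. All 6 values lay far above the dim limit of 5.07.

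Lifr, the chain that binds leukemia inhibitory factor, stood at 9.19, 8.09 and 8.52 in diabetic cells, against 9.60, 9.02 and 8.83 in nondiabetic cells. Diabetic arrays 2 and 3 lay below all nondiabetic arrays, and diabetic array 1 lay between nondiabetic arrays 1 and 2. The difference was -0.55 (SE 0.31), at the 1.20th percentile of all tested genes, and Lifr had the widest spread within groups of the members, with a pooled SD of 0.48 against a median of 0.24 over all tested genes. It was -0.84 without diabetic replicate 1, -0.32 without nondiabetic replicate 1 and -0.29 without diabetic replicate 2.

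Osmr, the chain that binds oncostatin M, lies on chromosome 15 with Lifr. Its levels were 9.08, 8.63 and 8.38 in diabetic and 9.03, 9.05 and 8.64 in nondiabetic cells. The highest value was diabetic, while the other two diabetic arrays lay below all nondiabetic arrays. The difference was -0.21 (SE 0.22), and it was -0.40 without diabetic replicate 1, -0.34 without nondiabetic replicate 3 and -0.05 without diabetic replicate 3. Without nondiabetic replicate 2 it was -0.14. Without diabetic replicate 1, which also carried the highest general endothelial level, all diabetic arrays lay below all nondiabetic arrays for both Lifr and Osmr. That pattern then held for 10.8% of all tested genes.

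Stat3, the main factor activated through gp130, stood at 9.24, 8.95 and 8.90 in diabetic and 8.83, 9.17 and 8.64 in nondiabetic cells. Nondiabetic array 2 lay among the diabetic values and kept the groups from separating. The difference was 0.15 (SE 0.19), and it was 0.29 without nondiabetic replicate 2, 0.04 without diabetic replicate 1 and 0.03 without nondiabetic replicate 3.

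Socs3, the inhibitor that Stat3 induces, had the same order of arrays in both groups, with replicate 2 highest and replicate 3 lowest. It stood at 6.64, 6.94 and 6.12 in diabetic and 6.66, 7.01 and 6.35 in nondiabetic cells. Same-numbered arrays of the groups are not paired by the labels, so this order has no design behind it. The difference was -0.11 (SE 0.25). Its sign was not stable: leaving out diabetic replicate 3 gave 0.11 and leaving out nondiabetic replicate 2 gave 0.06, while leaving out diabetic replicate 2 gave -0.29 and leaving out nondiabetic replicate 3 gave -0.27. The second probe set that names Socs3 alone was dimmer, at 5.81, 5.94 and 6.03 in diabetic and 6.07, 6.22 and 5.86 in nondiabetic cells. It differed by -0.13 (SE 0.14), and its order within the diabetic arrays was not that of the brighter probe set.

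**Figure D3:**
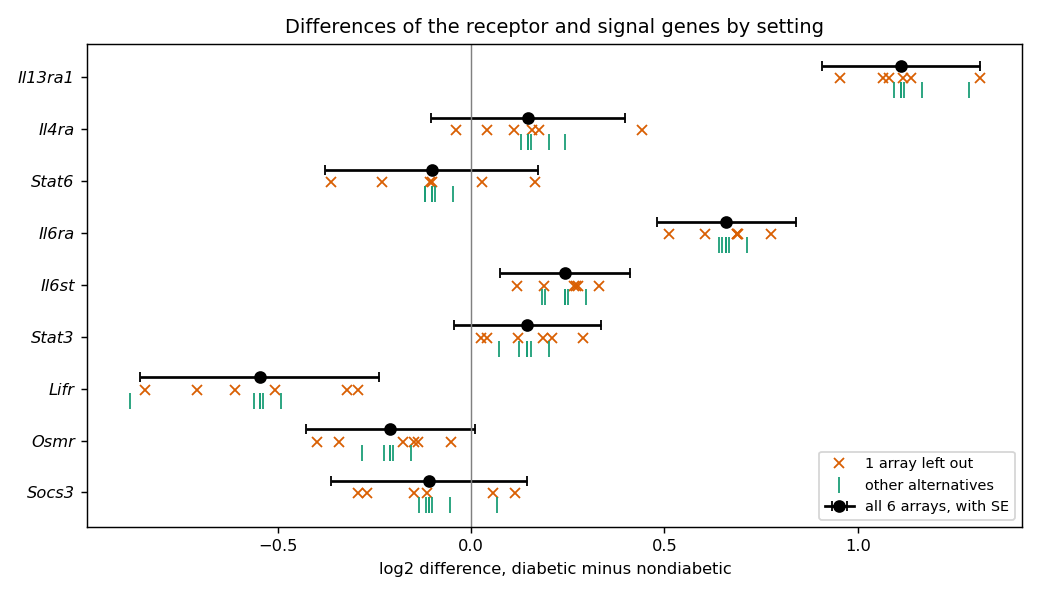
Log2 difference, diabetic minus nondiabetic (x axis), of each gene with its limma SE on all 6 arrays (black), with 1 array left out (orange crosses) and under the other alternatives (green ticks). Il13ra1 stays between 0.95 and 1.32 and Il6ra between 0.51 and 0.78, while Il4ra, Stat6 and Socs3 cross 0.

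Within the diabetic group most members shared an order of arrays. Diabetic array 1 was the highest of its group for 7 of the 9 members, where it was highest for 49.9% of all tested genes. Diabetic array 3 was the lowest of its group for 7 of the 9, against 41.1% of all tested genes. The exceptions at the top were Il13ra1 and Socs3, with diabetic array 2 highest, and at the bottom Il6ra and Lifr, with diabetic array 2 lowest. The general endothelial markers, like most members and unlike Il13ra1, were highest on diabetic array 1.

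The other genes of the pathway were taken from 6 lists, of 118 genes counted once each, of which 111 were measured and 89 tested. In diabetic cells 57 had higher and 32 lower means, 0 passed the adjusted test in either direction, and the median difference was 0.07. The smallest adjusted p of any of them was 0.997 (limma).

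**Figure D4:**
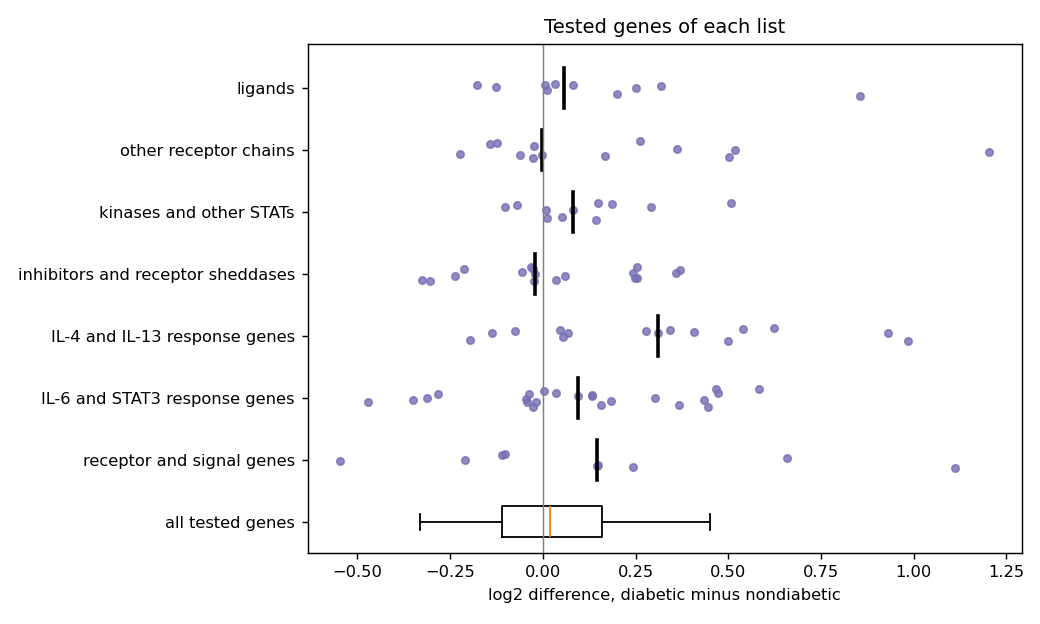
Log2 difference, diabetic minus nondiabetic (x axis), of every tested gene of each list (points, with the median as a black bar), and of all 13308 tested genes (box over the middle quartiles, whiskers from the 5th to the 95th percentile, median in orange). Among these filtered genes the IL-4 and IL-13 response list has a median of 0.31, against 0.02 for all tested genes, but its median is 0.04 with dim genes kept.

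Among the ligands, Il13 itself lay higher in diabetic cells. Of 17 ligands listed 16 were measured and 10 tested, 8 with higher and 2 with lower means. The median difference was 0.06, and with single arrays left out it ranged from -0.02 (diabetic replicate 3) to 0.25 (nondiabetic replicate 3). Il13 stood at 8.24, 8.69 and 8.07 in diabetic cells, against 7.57, 7.03 and 7.84 in nondiabetic cells, without overlap. The difference was 0.86 (SE 0.25), or 0.63 without nondiabetic replicate 2, with an adjusted p = 0.997 (limma). Il27, a chain of a cytokine that also signals through gp130, differed by 0.25 (SE 0.16, adjusted p = 0.997), or by 0.16 without diabetic replicate 2. Il4 differed by 0.03 (SE 0.40), Il6 by 0.0065 (SE 0.25), Lif by 0.01 (SE 0.17) and Osm by 0.32 (SE 0.46), named here after their values were seen as the ligands of the members. The Il11, Il2, Il7, Il9, Il21 and Il31 probe sets were left out as dim.

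Basophils are a known source of Il4, Il13 and Il6, and their markers were bright in these sorts. All 9 basophil and mast cell markers were tested, and their mean level was 8.95, 9.26 and 9.37 in diabetic and 9.05, 8.70 and 9.70 in nondiabetic cells. Il4 stood at 6.35, 6.53 and 7.02 in diabetic and 6.20, 6.03 and 7.57 in nondiabetic cells, in the same order of arrays within each group as the basophil markers. Il13 kept that order within the nondiabetic arrays and not within the diabetic arrays. The basophil marker mean differed by 0.04 and overlapped between the groups. The part of basophil RNA in the Il4 and Il13 values was not tested.

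Of the other receptor chains, Il13ra2 was the one that stood out in size. It encodes a second IL-13 receptor that binds the cytokine tightly and is best known as a decoy. Il13ra2 stood at 7.07, 5.98 and 5.92 in diabetic cells, against 5.13, 5.14 and 5.09 in nondiabetic cells. The diabetic arrays did not overlap the nondiabetic arrays, which lay together just above the limit of 5.07. At that level the signal may be background, so the size of the difference is uncertain. The difference was 1.20 (SE 0.29), or 0.83 without diabetic replicate 1, with an adjusted p = 0.997 (limma). Of 13 tested chains 6 had higher and 7 lower means. The median difference was -0.0019, with a sign that changed in 8 of 16 alternatives. It was 0.13 without nondiabetic replicate 1 and 0.17 with the dim filter at the 60th percentile. Il12rb2, an interleukin 12 receptor chain, differed by 0.36 (SE 0.21, adjusted p = 0.997), with a nondiabetic level of 4.95 ± 0.25 under the dim limit.

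**Figure D5:**
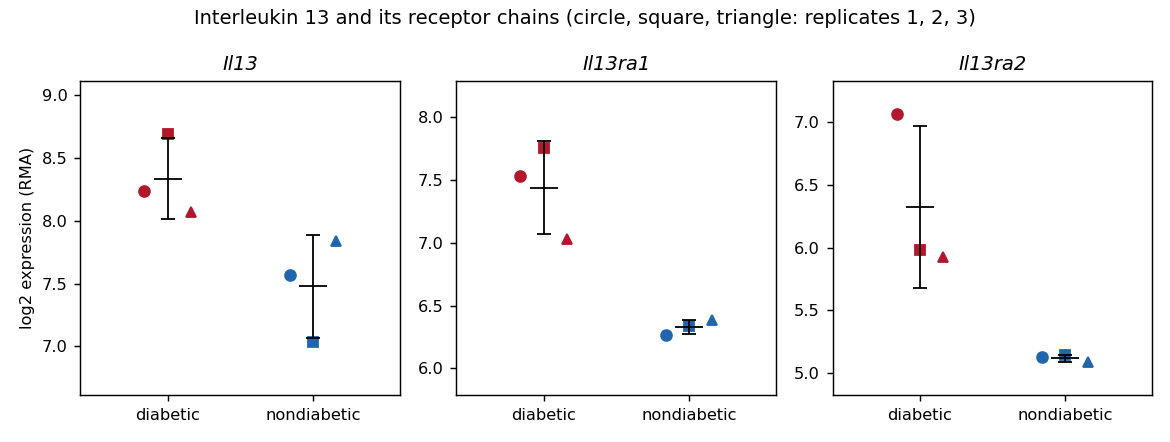
Log2 expression (y axis, the same height in log2 units in every panel) of Il13 and the IL-13-binding chains Il13ra1 and Il13ra2 on the 3 diabetic (red, left) and 3 nondiabetic (blue, right) arrays, with the group mean and SD as black bars. In every panel the lowest red point lies above the highest blue point, which held for 5.28% of all tested genes. The genes drawn were picked with this contrast in view. Il4ra, the partner chain of Il13ra1, is not drawn, and its groups overlapped (difference 0.15, SE 0.25). The Il13ra2 blue points lie between 5.09 and 5.14.

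Of 11 tested kinases, adaptors and STATs that serve many receptors, 9 had higher and 2 lower means, where 54.0% of all tested genes had a higher mean. The median difference was 0.08, and with single arrays left out it ranged from 0.03 (nondiabetic replicate 2) to 0.16 (nondiabetic replicate 3). Ptpn11, the phosphatase SHP2 that binds gp130 and carries signal to the MAP kinase pathway, stood at 7.94, 7.84 and 7.70 in diabetic and 7.35, 6.94 and 7.66 in nondiabetic cells. The groups did not overlap, and the difference was 0.51 (SE 0.21, adjusted p = 0.997), or 0.32 without nondiabetic replicate 2. Gab2, an adaptor of SHP2, differed by 0.29 (SE 0.28, adjusted p = 0.997), but by 0.03 without diabetic replicate 1, 0.20 without nondiabetic replicate 3 and 0.60 without diabetic replicate 3. Jak1, the kinase used by gp130 and Il4ra alike, differed by 0.19 (SE 0.19), named after its value was seen.

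Inhibitors and the proteases that shed receptors went both ways. Of 17 tested genes 8 had higher and 9 lower means. The median difference was -0.02, with a sign that changed in 8 of 16 alternatives, and it was 0.14 without nondiabetic replicate 2. Pias1, which restrains STAT binding to DNA, stood at 9.003, 8.85 and 8.86 in diabetic and 8.52, 8.70 and 8.42 in nondiabetic cells, without overlap. It differed by 0.36 (SE 0.15, adjusted p = 0.997). Its relative Pias4 differed by -0.33 (SE 0.18, adjusted p = 0.997), or by -0.20 without diabetic replicate 3. Socs1, the inhibitor of the Stat6 branch, differed by -0.02 (SE 0.17), and Adam17, a protease that releases soluble Il6ra, by -0.21 (SE 0.30), both named after their values were seen.

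Genes known to respond to IL-4 and IL-13 had the highest median of the lists among the genes that passed the dim filter, a rank lost without that filter. Of 24 measured genes 15 were tested, 12 with higher and 3 with lower means in diabetic cells, and the median difference was 0.31. The other 9 measured genes were left out as dim, among them Retnla, Mgl2, Ccl17 and Ccl24, targets best known from macrophages, and with the dim genes kept the median was 0.04, below the 0.07 of the kinases and STATs in the same setting. Mrc1, the mannose receptor, is induced by these cytokines in macrophages and is also a marker of sinusoidal endothelium. It stood at 8.80, 8.01 and 7.86 in diabetic cells, against 7.52, 7.04 and 7.16 in nondiabetic cells, without overlap. Its difference was 0.99 (SE 0.27, adjusted p = 0.997). Fgl2, a prothrombinase of endothelium and macrophages, stood at 6.46, 6.50 and 6.25 in diabetic and 5.97, 5.84 and 5.77 in nondiabetic cells, and differed by 0.54 (SE 0.15, adjusted p = 0.997). For 5 of the 15 tested genes every diabetic array lay above every nondiabetic array, which held for 5.28% of all tested genes, and for 0 every diabetic array lay below, against 2.67% of all. Among the genes left out as dim, Retnla and Clec10a had every diabetic array below every nondiabetic array. Their means were 3.02 against 3.30 and 4.85 against 5.25, diabetic first, and Clec10a was named after its values were seen. The sinusoidal and the monocyte marker lists, whose groups did not overlap either, differed by 0.65 and 0.41 in mean level, and their part in this list was not tested.

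Genes known to respond to IL-6 and Stat3 went both ways. Of 23 tested genes 14 had higher and 9 lower means, and the median difference was 0.09, or -0.0069 without diabetic replicate 1, 0.04 without diabetic replicate 2 and 0.16 without diabetic replicate 3. For 6 of the 23 every diabetic array lay above every nondiabetic array, against 5.28% of all tested genes, and for 0 every diabetic array lay below. No test compared this list with the IL-4 and IL-13 response genes. Lrg1, a glycoprotein of venous endothelium and neutrophils, stood at 9.30, 9.27 and 9.39 in diabetic cells, against 9.07, 8.92 and 8.64 in nondiabetic cells. The groups did not overlap, and the difference was 0.45 (SE 0.16, adjusted p = 0.997). Bcl6, a transcriptional repressor induced by Stat3, stood at 6.29, 5.93 and 5.85 in diabetic and 5.46, 5.69 and 5.61 in nondiabetic cells, and differed by 0.43 (SE 0.17, adjusted p = 0.997). Fgg, Fga, Serpina3n, Timp1 and Nnmt were left out as dim. For Nnmt every diabetic array lay below every nondiabetic array, with means of 3.98 in diabetic and 4.12 in nondiabetic cells. The acute-phase genes Saa3, Hp and Lcn2 were tested and went both ways, named here after their values were seen. They differed by -0.47 (SE 0.50), 0.18 (SE 0.46) and 0.58 (SE 0.25).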

How the data were processed

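The authors deposited log2 expression values per probe set that, per the submitters' processing notes, were made with RMA, a method that corrects background, equalises array distributions and summarises probes. Neither the program nor the annotation used for it is given in the sources used here. Of 41345 probe sets, 23521 named 1 gene in the platform annotation supplied, 1814 several and 16010 none here. Genes below the 40th percentile of mean level were left out as dim, which left 13308 of 22180. The comparison used limma 3.58.1 under R 4.3.3 (lmFit, eBayes, no covariates, Benjamini-Hochberg over all tested genes, threshold 0.05) after a run on simulated data. SEs come from this fit and differences are diabetic minus nondiabetic. The number of arrays limits the precision.

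The members and lists were chosen with earlier results of these data known. Named genes are the members, the 2 genes of each pathway list with the smallest limma p, and the brightest tested member of a marker list where it is used. Other names are pointed out. Same-numbered arrays had deviations from their group means that correlated at -0.04, -0.06 and 0.02, so the numbers were not taken as pairs. Start regions came from RefSeq. Alternatives were other filters on dim genes, other uses of probe sets, renormalization, other variance models, weights for arrays, the replicate number as a block, and each array left out once.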

Additional observations from a re-analysis of the deposited data

How the results depend on the processing

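Under 16 alternatives the differences of 6 of the 9 measured members kept their sign, and those of Il4ra, Stat6 and Socs3 did not; Socs3 also turned with array weights, to 0.07. Lifr differed by -0.88 with array weights. With single arrays left out the median of the ligands lay between -0.016 (diabetic replicate 3 left out) and 0.255 (nondiabetic replicate 3 left out). That of the IL-4 and IL-13 response genes lay between 0.18 (diabetic replicate 1 left out) and 0.42 (nondiabetic replicate 3 left out), and it was 0.042 with no filter on dim genes. The single lower call, Rabggtb, which belongs to no list here, was lost when the dim filter was set at the 60th percentile, with 0 genes called lower. Leaving out single arrays gave 0 lower calls (without nondiabetic replicate 3) or 1. A setting chosen after seeing the data, which centred each array on its general endothelial markers, called 13 genes higher and 6 lower. Among them were 0 members and 0 genes of the 6 pathway lists, but Adamts5 of the sinusoidal marker list was called higher (2.00). Il13ra1 differed by 1.17 and Il6ra by 0.71 there. The replicate block left the differences as they were, since every number occurs once in each group, and gave 0 genes higher and 1 lower. With 3 arrays a group and a median SE of 0.19, some differences were smaller than their own SE. Those of Il4ra, Stat6, Stat3, Socs3 and Osmr (-0.21, SE 0.22) cannot be told from the spread between arrays. Il6st differed by 0.24 (SE 0.17) and Lifr by -0.55 (SE 0.31), and 0 members passed the adjusted test. Il12rb2 and Il13ra2 lie near the dim limit, and the filter at the 60th percentile left both out.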
